A study of Canis lupus familiaris with 6 samples.

Results

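The cytosolic ribosomal protein genes were taken as the protein-coding genes whose symbol is RPL or RPS followed by a number, with or without an A, X or L and a further digit, together with RPLP0 to RPLP2 and RPSA. This choice, which used no measured value, found 59 of the 29822 genes in the table. Of these, 56 have the symbol of a core protein of the ribosome, 32 of the large subunit and 24 of the small subunit. The other 3 (RPL22L1, RPL3L and RPL10L) are paralogs that carry the name of a core protein plus L. RPLP1, RPLP2, RPL10, RPS14 and RPS19 were among the core proteins that no symbol of the table matched, and they were not analysed here.

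Each cytosolic ribosome holds 1 copy of nearly every core protein, and the genes are expressed at high levels in growing cells. Their mRNAs begin with a run of pyrimidines, the TOP motif, through which the kinase mTORC1 and the RNA-binding protein LARP1 control translation and stability together. Several of the proteins also have roles off the ribosome, such as RPL5 and RPL11, which bind the p53 regulator MDM2. Most of the genes have processed copies elsewhere in mammalian genomes, so that a read from an exon can match more than 1 place, and many carry small nucleolar RNA (snoRNA) genes in their introns.

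CMM10, a canine malignant melanoma line, was kept under hypoxia (3 libraries) or under normoxia (3 libraries), and the labels give no other difference between the groups, no oxygen level and no duration. Polyadenylated RNA was sequenced in pairs of reads. Nothing states that the libraries came from separate cultures, so p-values measure the spread between these libraries, which may be technical. In bulk RNA, fewer cells of a type and less RNA per cell cannot be told apart.

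Libraries held 23196647 to 28804337 gene reads, of which the 59 genes took 795460 to 883480 under hypoxia and 709711 to 879107 under normoxia. Of the melanocyte genes, SOX10 (65.6 against 49.9 CPM), DCT (37.6 against 44.2 CPM) and MITF (28.9 against 30.6 CPM) were expressed. MLANA lay under 1 CPM in both groups, and TYR and TYRP1 were below the count filter. The summed melanocyte list spanned 139.1 to 144.8 CPM under hypoxia and 129.6 to 139.6 CPM under normoxia. Keratinocyte genes (2 of 3 tested, as no symbol matched KRT5) summed to 4086 to 4766 CPM under hypoxia and 938.5 to 960.1 CPM under normoxia, nearly all of it KRT14. The 2 went opposite ways, with a log2 change of hypoxia over normoxia of 2.35 in KRT14 and -0.45 in KRT10. Fibroblast genes (4 of 4 tested) spanned 5573 to 5750 and 4217 to 4500 CPM, and endothelial genes (2 of 3 tested) 13.8 to 16.6 and 5.37 to 6.65 CPM. Immune genes (1 of 4 tested) stayed under 2 CPM in sum, with MS4A1 at 0 in all libraries. The part of these differences in the ribosomal protein values was not tested.

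Levels between genes were compared as TPM, the deposited value per exon length. The 56 core genes averaged 273.1 to 3107 TPM over the 6 libraries, with a median of 1425 TPM, and 43 of them exceeded 1000 TPM. RPS6, the small-subunit protein that S6 kinases phosphorylate, had the highest level, at 3046 ± 58.6 TPM under hypoxia and 3167 ± 66.5 TPM under normoxia (SD, n = 3 each, as in all means below). RPL8, of the large subunit, followed at 2900 ± 99.3 TPM under hypoxia and 3177 ± 40.9 TPM under normoxia, so that under normoxia RPS6 and RPL8 differed by less than their spread. RPL4 (2327 ± 45.8 and 2590 ± 49.6 TPM), RPS15A (2236 ± 38.4 and 2269 ± 24.3 TPM) and RPL7 (2201 ± 30.0 and 2276 ± 15.9 TPM) came next, again with hypoxia first. The lowest core genes were RPL21 (272 ± 8.52 and 274 ± 7.32 TPM), RPS27 (353 and 333 TPM) and RPL35 (390 and 436 TPM). TPM divides by the length of the annotated exons, and the RPL35 model (2407 bases) is longer than that of RPL8 (840 bases).

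Together, the 59 genes made up 8.19%, 8.08% and 7.96% of TPM in hypoxia replicates 1, 2 and 3, against 8.32%, 8.41% and 8.09% in normoxia replicates 1, 2 and 3. The groups overlapped, since hypoxia replicate 1 lay above normoxia replicate 3. The large-subunit genes held 4.52% ± 0.065 of TPM under hypoxia and 4.66% ± 0.10 under normoxia, and the small-subunit genes 3.54% ± 0.052 and 3.59% ± 0.068. The same 59 genes took 3.68% to 3.80% of exon reads under hypoxia and 3.82% to 4.02% under normoxia, groups that did not overlap but lay close. Of intron reads they took 0.726%, 0.696% and 0.656% in the hypoxia replicates, against 0.798%, 0.819% and 0.788% in the normoxia replicates. That share was lower in every hypoxia library than in any normoxia library.

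**Figure D1:**
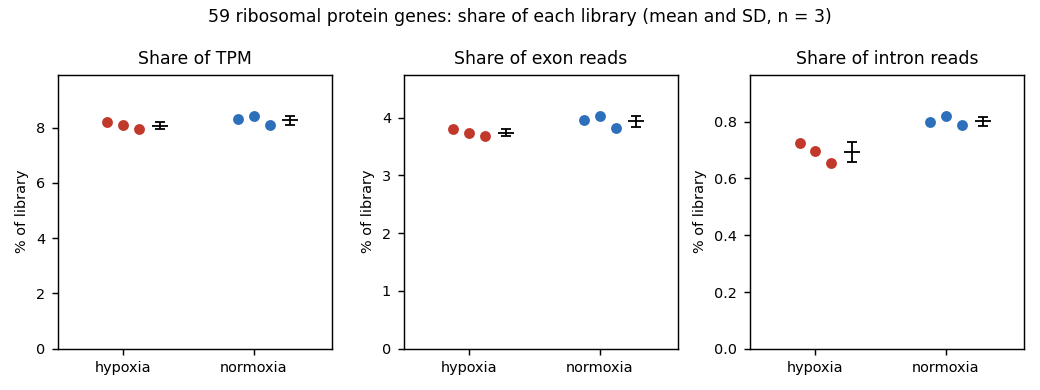
Share of each library (%, y axis from 0) taken by the 59 ribosomal protein genes, as TPM, exon reads and intron reads, in the hypoxia and normoxia libraries (points, with mean and SD, n = 3). The shares of TPM overlap between the groups, at 7.96% to 8.19% under hypoxia and 8.09% to 8.41% under normoxia, while those of intron reads do not.

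Individual ribosomal protein mRNAs changed little between hypoxia and normoxia. The comparison asks which genes alter their expression when these tumour cells have little oxygen, and was made by edgeR's quasi-likelihood test on total gene reads, where a call means p below 0.05 after Benjamini-Hochberg adjustment over all 15397 genes tested. Among the 58 genes tested, 4 rose and 14 fell, which is 31% called against 49% of all genes tested (24.5% higher and 24.4% lower). Of 2399 genes with a mean of at least 100 CPM, a level that all core genes exceeded (164 to 1501 CPM), 72% were called. Within the 56 core genes, 4 rose, 13 fell and 39 were not called. Their median log2 fold change of hypoxia over normoxia was -0.02, beside 0.00 for all genes. The median absolute change was 0.06 on the log2 scale for the core genes, 0.23 for all genes and 0.18 for those of at least 100 CPM.

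No core gene was both called and changed by more than 0.32 on the log2 scale, which 27% of all genes were. The 95% interval of the change lay within 0.32 either way for 55 of the 56 core genes (98.2%), with RPL14 as the exception, beside 34.1% of all genes and 59.9% of those of at least 100 CPM. Hypoxia and normoxia libraries did not overlap in 18 core genes (32.1%), where 55.3% of all genes showed no overlap. The direction and number of calls among such small changes depended on the scaling. With library size as the only scaling, 1 of the 58 genes was higher and 32 were lower. Of all 15397 genes, 3076 were higher and 4862 lower (51.6% called), so the 58 genes were not called less often there. Among all calls the share of rises was 38.8% against 50.1% with TMM factors. Leaving out 1 library also moved the counts, to 1 higher and 13 lower without hypoxia replicate 1, 5 and 9 without normoxia replicate 2, and 2 and 21 without normoxia replicate 3. In those fits, in that order, 44%, 43.5% and 45.6% of all genes were called. In the core genes, the median deviation from the gene's mean over all libraries was -0.04 to 0.03 on the log2 scale in the hypoxia libraries, 0.02 in normoxia replicate 1, 0.06 in normoxia replicate 2 and -0.05 in normoxia replicate 3.

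**Figure D2:**
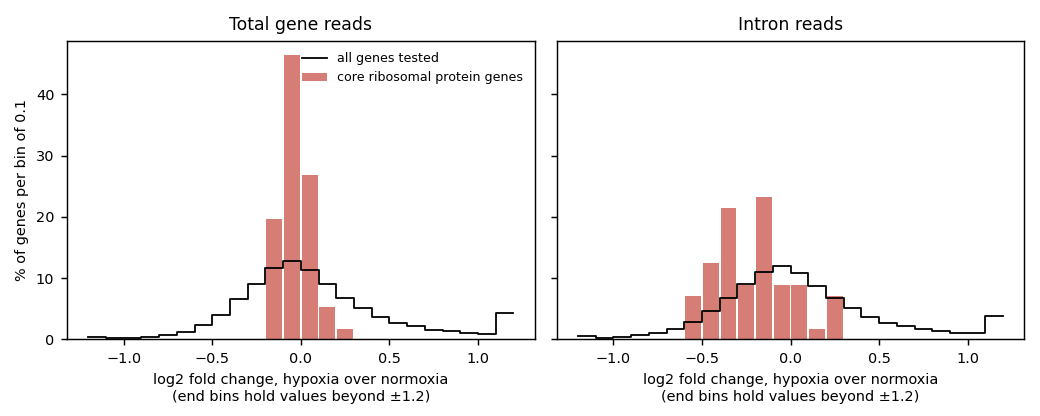
Percentage of genes (y axis) per bin of 0.1 in log2 fold change of hypoxia over normoxia (x axis), for the core ribosomal protein genes (bars) and all genes tested (line), from total gene reads (left) and intron reads (right). In gene reads the core genes lie in a narrow band around 0 (median -0.02), and in intron reads their median is -0.20.

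In the large subunit, 9 of 32 core genes fell and 1 rose, where 24.4% of all genes tested fell and 24.5% rose. RPL13A, a surface protein of the large subunit that can also leave it to repress translation after interferon, fell most (chromosome 1, 107010190 to 107014267, CanFam3.1). It had 629, 600 and 614 CPM in the hypoxia replicates, against 725, 720 and 670 CPM in the normoxia replicates, so that every hypoxia library was lower than every normoxia library. Its log2 change was -0.20 ± 0.035 (SE, edgeR adjusted p = 1.46e-05), or 0.872-fold. RPL7A, a large-subunit protein whose gene model overlaps SURF1, had 552 ± 18.4 CPM under hypoxia and 608 ± 27.2 CPM under normoxia (-0.14 ± 0.036, edgeR adjusted p = 0.00152). RPL35, near the peptide exit tunnel and in a model that overlaps WDR38, had 468 ± 7.17 and 514 ± 22.8 CPM (-0.13 ± 0.035). RPL4, which lines that tunnel, had 1461, 1393 and 1445 CPM under hypoxia and 1601, 1608 and 1497 CPM under normoxia (-0.13 ± 0.034), again without overlap.

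RPL3, close to the peptidyl transferase centre, and RPL19, which bridges the subunits, each changed by -0.11, as did RPL8, RPL22 and RPL28. The calls of RPL13A, RPL7A, RPL35, RPL4, RPL3 and RPL19 held without any 1 of the 6 libraries. RPL28 lost its call in 4 of those 6 fits (highest edgeR adjusted p = 0.222), RPL8 in 3 (0.0834) and RPL22 in 2 (0.0686). RPL8 was lost without hypoxia replicate 3, normoxia replicate 1 or normoxia replicate 2, RPL22 without hypoxia replicate 3 or normoxia replicate 2, and RPL28 kept its call only without hypoxia replicate 1 or normoxia replicate 3. The other 22 large-subunit genes were not called and had log2 changes between -0.08 (RPL27) and 0.08 (RPL37).

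RPL14, a surface protein of the large subunit whose gene lies on chromosome 23 (9907479 to 9911114), was the exception. It had 570, 541 and 566 CPM in the hypoxia replicates, against 463, 466 and 461 CPM in the normoxia replicates. All hypoxia libraries lay above all normoxia libraries, and the 3 normoxia values lay close together. The log2 change was 0.27 ± 0.033 (95% interval 0.21 to 0.34, edgeR adjusted p = 2.49e-08), or 1.21-fold. The call held without any 1 library (0.26 to 0.30) and with library size as the only scaling (0.21).

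**Figure D3:**
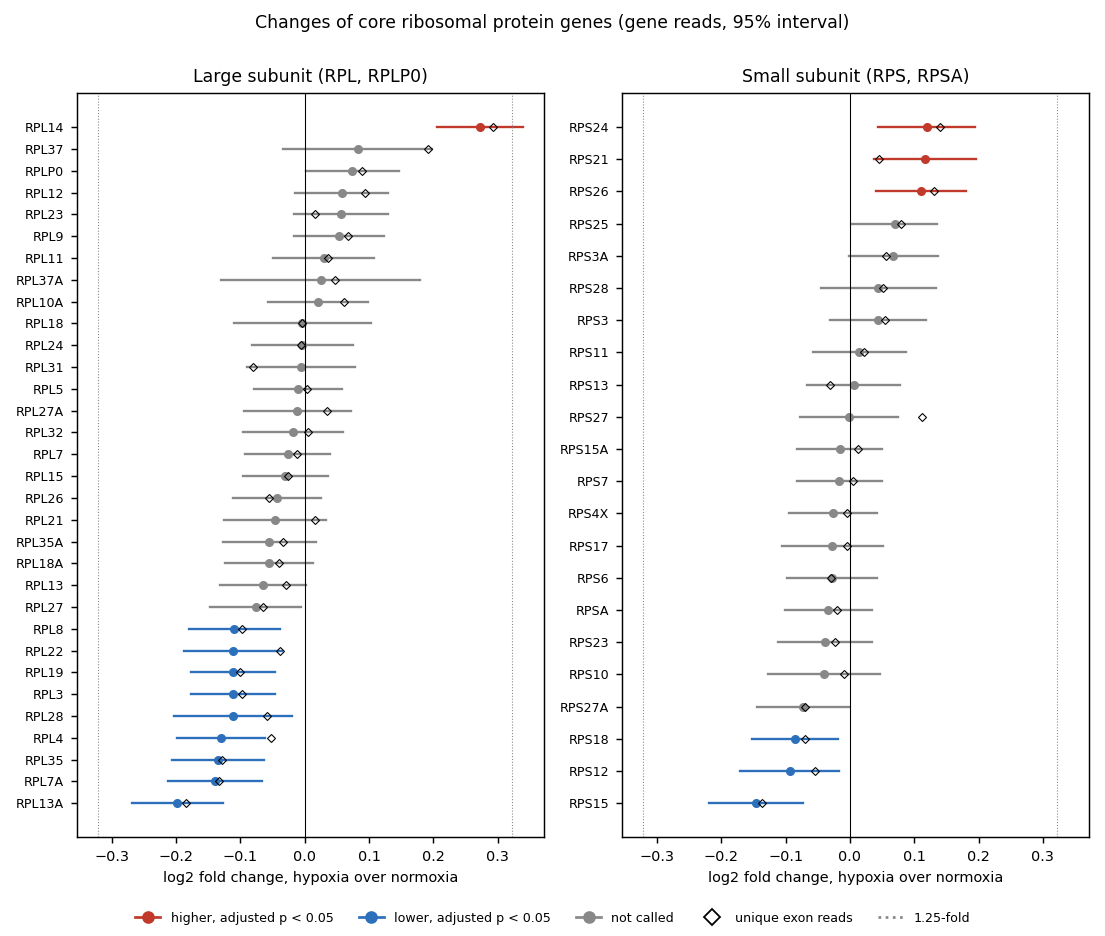
Log2 fold change of hypoxia over normoxia (x axis) of 54 of the 56 core genes from total gene reads, with its 95% interval (line) and the value from uniquely mapped exon reads (diamond), for the large subunit (left) and the small subunit (right). RPL14 stands at 0.27, and the other genes drawn lie between -0.20 and 0.12, inside the dotted lines at a log2 change of 0.32 either way.

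In the small subunit, 4 of 24 core genes fell and 3 rose, beside the same 24.4% and 24.5% of all genes tested. RPS15, which lies at the head of the subunit and whose model overlaps 3 other genes, had 317, 318 and 308 CPM under hypoxia and 344, 365 and 335 CPM under normoxia. The groups did not overlap. The log2 change was -0.15 ± 0.036 (edgeR adjusted p = 9.89e-04). RPS12 (-0.09) and RPS18 (-0.09) also fell, but RPS12 lost its call in 4 of the 6 fits without 1 library (highest edgeR adjusted p = 0.249) and RPS18 in 3 (0.133). RPS12 kept it only without hypoxia replicate 1 or normoxia replicate 3, and RPS18 lost it without hypoxia replicate 1, hypoxia replicate 2 or normoxia replicate 2.

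RPS26, which contacts mRNA upstream of the start codon, had 923, 887 and 850 CPM under hypoxia and 831, 837 and 797 CPM under normoxia (0.11 ± 0.034, edgeR adjusted p = 0.00743), without overlap between the groups. RPS24, a protein needed for small-subunit maturation and mutated in some patients with Diamond-Blackfan anaemia, had 635, 609 and 606 CPM under hypoxia and 563, 603 and 538 CPM under normoxia (0.12 ± 0.037, edgeR adjusted p = 0.00779). In RPS24 the groups were separated by only 1 narrow gap, between hypoxia replicate 3 and normoxia replicate 2. RPS21 had 454, 433 and 397 CPM under hypoxia and 396, 398 and 391 CPM under normoxia (0.12 ± 0.039, edgeR adjusted p = 0.0134), and here the groups overlapped. All 3 rises were lost without hypoxia replicate 1 (edgeR adjusted p = 0.103 for RPS26, 0.0679 for RPS24 and 0.177 for RPS21) and with library size as the only scaling (0.04, 0.05 and 0.05). RPS24 was also lost without normoxia replicate 3, and RPS21 without hypoxia replicate 2 or normoxia replicate 3. From uniquely mapped gene reads, which were 47.3% of those of RPS24 and 66.2% of those of RPS21, neither was called, at 0.06 ± 0.035 for RPS24 (edgeR adjusted p = 0.144) and 0.06 ± 0.045 for RPS21 (edgeR adjusted p = 0.258). RPS24 did pass from uniquely mapped exon reads (0.14 ± 0.037, edgeR adjusted p = 0.00138). Introns held 42.1% of the reads of RPS21, whose model spans 166400 bases and overlaps 4 other genes, and from exon reads RPS21 changed by 0.05 (edgeR adjusted p = 0.588).

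The 17 small-subunit genes that were not called had log2 changes between -0.07 and 0.07. RPS6 had 1167, 1122 and 1103 CPM in the hypoxia replicates and 1154, 1200 and 1105 CPM in the normoxia replicates, which overlapped (-0.03, 95% interval -0.10 to 0.04). RPSA, the laminin receptor precursor that is also a small-subunit protein, had 859, 816 and 829 CPM under hypoxia and 873, 867 and 822 CPM under normoxia (-0.03, 95% interval -0.10 to 0.03). RPLP0, which anchors the stalk that recruits elongation factors, had 1030, 983 and 1007 CPM under hypoxia and 999, 971 and 901 CPM under normoxia (0.07, 95% interval 0.00 to 0.15, edgeR adjusted p = 0.0843). It passed without normoxia replicate 1 (0.11, edgeR adjusted p = 0.0299) and from exon reads (0.10, edgeR adjusted p = 0.0105). RPL5 (777 ± 28.5 CPM under hypoxia and 783 ± 17.7 CPM under normoxia) and RPL11 (559 ± 15.8 and 548 ± 34.2 CPM) had changes of -0.01 (95% interval -0.08 to 0.06) and 0.03 (-0.05 to 0.11).

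**Figure D4:**
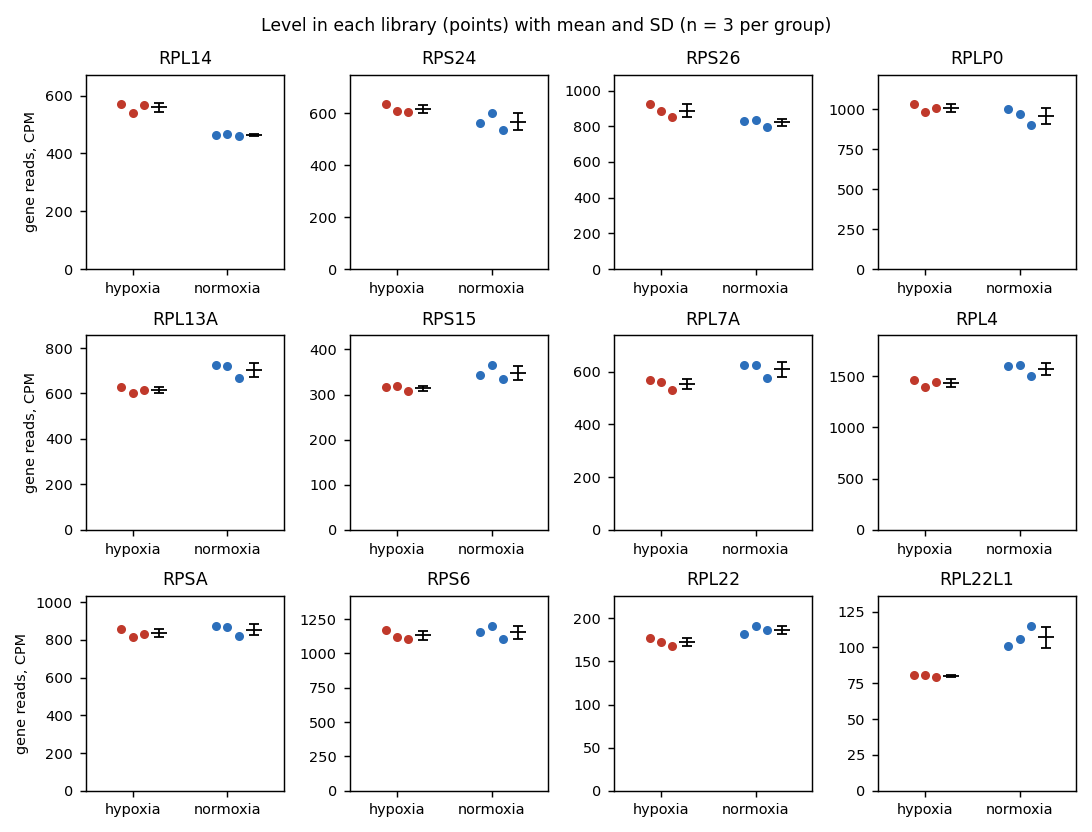
Gene reads in CPM (y axes from 0) of 12 ribosomal protein genes in each hypoxia and normoxia library (points), with mean and SD (n = 3 per group). RPL14 is higher and RPL13A, RPS15, RPL4 and the paralog RPL22L1 are lower in every hypoxia library than in any normoxia library, and RPSA and RPS6 overlap.

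Because processed copies share exon sequence with these genes, the share of exon reads that mapped to 1 place differed widely between members. It was at least 99% in 26 of the 56 core genes, at least 90% in 37 and under 50% in 10. RPL4 had the lowest share (1.24%), followed by RPL31 (13.2%), RPL26 (14.4%) and RPL37 (17.1%). The model of RPL37 has 1 exon of 348 bases and no reads across exon junctions, while in every other core gene at least 31.2% of exon reads crossed a junction. Whether this model measures RPL37 itself or a processed copy of it was not tested. From uniquely mapped exon reads, 9 core genes were higher and 8 lower, where 48.9% of all 13325 genes tested were called. Of the 17 core calls from gene reads, 11 were also called, in the same direction, from unique exon reads. RPL14, at 46.5% unique, changed by 0.29 ± 0.038 in unique exon reads (edgeR adjusted p = 1.04e-08), and RPL13A, at 100%, by -0.18 ± 0.031 (edgeR adjusted p = 3.31e-06).

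The 6 calls not found in unique exon reads were those of RPL4 (-0.05 ± 0.083), RPL28, RPL22, RPS12, RPS18 and RPS21. For RPL4 the standard error in unique exon reads was more than the change itself, and since nearly all its exon reads match more than 1 place its value from total gene reads is uncertain. Another 6 genes passed from unique exon reads but not from gene reads, all of them higher under hypoxia, among them RPL37 (0.19), RPS27 (0.11), RPL12 (0.09), RPLP0 (0.09) and RPS25 (0.08). RPS27, a zinc-binding protein of the small subunit, was at 0.00 in gene reads. Its model spans 242133 bases and 11 other genes, and introns held 46.8% of its reads.

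RPL22L1, a paralog that can take the place of RPL22 in the ribosome and whose mRNA RPL22 is known in mouse to repress, was the member that fell most. It had 80.5, 80.7 and 79.2 CPM in the hypoxia replicates, against 101, 106 and 115 CPM in the normoxia replicates, with no overlap and nearly equal hypoxia values. Its log2 change was -0.42 ± 0.047 (95% interval -0.51 to -0.32, edgeR adjusted p = 4.61e-09), or 0.748-fold, with all exon reads mapped to 1 place. The call held without any 1 library (-0.46 to -0.37). RPL22 itself had 177, 173 and 168 CPM under hypoxia and 182, 191 and 187 CPM under normoxia, and its -0.11 ± 0.037 (edgeR adjusted p = 0.0129) stood beside -0.01 in exon reads (edgeR adjusted p = 0.798).

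The log2 ratio of RPL22L1 to RPL22 was -1.13, -1.10 and -1.08 in the hypoxia libraries and -0.85, -0.85 and -0.70 in the normoxia libraries. The groups did not overlap, and they differed by -0.30 (two-sided exact permutation p = 0.1, the smallest that 3 against 3 can give, and 0.2 after adjustment over the 2 pairs measured). The difference of this ratio was -0.408 from exon reads and -0.385 from uniquely mapped exon reads. RPL3L, the muscle form of RPL3, had 36 reads under hypoxia and 31 under normoxia in all, every one of them in introns, and its model overlaps MSRB1. It passed the count filter but was not called (0.14 ± 0.52), and its ratio to RPL3 differed by 0.15 (exact permutation p = 0.7). RPL10L, a single-exon copy of RPL10 active in the testis, had 4 reads under hypoxia and 3 under normoxia and was not tested.

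Intron reads, which are often used as a measure of transcripts not yet spliced, fell in 27 core ribosomal protein genes, in most of which exon reads were not called. From intron reads alone, 27 of the 56 core genes were lower (48.2%) and 3 higher, beside 15.7% and 18.7% of the 13858 genes tested, and the core median was -0.20 against -0.01 for all genes. Hypoxia and normoxia libraries did not overlap in 36 of the 56 core genes, 32 of them lower under hypoxia, where 44.2% of all genes showed no overlap. Of the 27, 20 were not called in exon reads, 5 were lower there and 2 higher. The difference between the intron and the exon change was then tested in 1 model over both kinds of read with the library as a block, a test added after the data were seen. In 24 of the 56 core genes (42.9%) the intron change was called below the exon change (edgeR adjusted p below 0.05), and in 2 above. By sign alone, the difference lay below 0 in 45 of the 56. Of 12265 genes with enough reads of both kinds, 2.99% were called below and 2.67% above. Among 2389 such genes with a mean of at least 100 CPM, 7.12% were called below. The median difference was -0.22 for the core genes and -0.02 for all genes.

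RPS15A, of the small subunit, had 446, 496 and 433 intron reads in the hypoxia replicates, or 66.2, 73.0 and 66.9 CPM of intron reads, against 631, 679 and 637, or 98.7, 101.9 and 106.4 CPM, in the normoxia replicates. All hypoxia libraries lay below all normoxia libraries. The intron change was -0.57 ± 0.081 and the exon change 0.01 ± 0.031, a difference of -0.58 ± 0.070 (edgeR adjusted p = 1.29e-07). RPSA had 93.0, 85.6 and 80.4 intron CPM under hypoxia and 123, 127 and 130 under normoxia, and its difference was -0.54 ± 0.068 (edgeR adjusted p = 3.07e-07). Its groups did not overlap. RPLP0 had 126, 115 and 109 intron CPM under hypoxia and 146, 156 and 153 intron CPM under normoxia, again without overlap, while its exon reads were higher under hypoxia, and it differed by -0.47 ± 0.067 (edgeR adjusted p = 3.79e-06).

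RPL5 (-0.52), RPL11 (-0.40), RPL12 (-0.53), RPL9 (-0.53), RPL21 (-0.50), RPL22 (-0.46) and RPL31 (-0.59) were also called, and so was RPL14 (-0.32 ± 0.095, edgeR adjusted p = 0.035). In RPL14 the intron change was -0.04 ± 0.12 while the exon reads rose (0.29 ± 0.032). The remaining genes called below 0 were RPL7, RPL13, RPL26, RPL27A, RPL32, RPS3, RPS7, RPS10, RPS12, RPS23, RPS24, RPS26 and RPS27, with differences of -0.22 to -0.43. The 2 genes called above 0 were RPL23 (0.23) and RPS21 (0.20), whose models span 140773 and 166400 bases and each overlap 4 other genes. In RPL13A, the largest fall among core genes, intron reads fell too (-0.41 ± 0.088) and the difference was not called (-0.22, edgeR adjusted p = 0.0743). RPS6 was not called, at 0.27 ± 0.13 in introns, with 303, 203 and 281 intron reads under hypoxia and 195, 217 and 208 under normoxia.

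**Figure D5:**
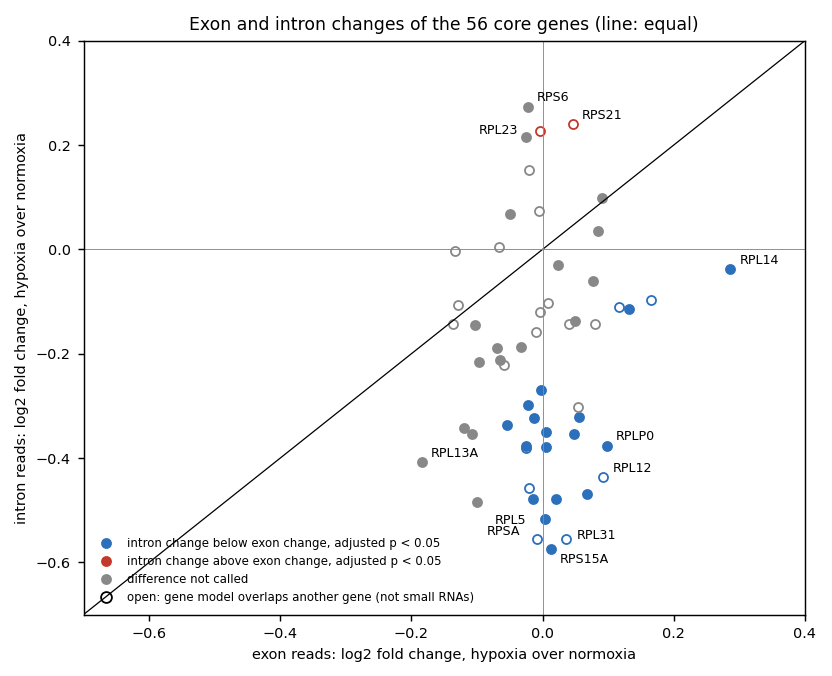
Log2 fold change of hypoxia over normoxia in intron reads (y axis) against that in exon reads (x axis) for the 56 core genes, with the line of equal change. The 24 genes in blue are called below the line by the test of the difference and the 2 in red above it, and open points have models that overlap another gene.

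The kit does not mark strand, so a model's intron reads can come from another gene in the same place. The models of 22 core genes overlap such a gene other than small RNA genes, and 8 span over 50 kb. Among the 22, 7 differences were called below 0, those of RPSA, RPL12 and RPL31 included, and 2 above. Among the 34 that overlap none, 17 differences were called below 0 and 0 above, with a median of -0.26. Among the 21 that hold no annotated gene of any kind, 11 were called below 0 and 0 above (median -0.27). A snoRNA gene lay inside 18 core genes (41 in all). The difference was called below 0 in 9 of those 18 and in 15 of the other 38. Of the 10 core genes with under 50% unique exon reads, 8 were called below 0 (median -0.33). Of the 37 with at least 90%, 13 were called below 0 (median -0.18). RPSA (29.7% unique), RPLP0 (38.3%) and RPL31 (13.2%) are among the 10. The cause of that gap was not tested. Intron reads of a core gene numbered 23 to 6521 per library, and 9 genes averaged under 200. The class is not purely intronic. RPL37, kept among the 56 core genes, has no intron in its model, yet 3.68% of its reads were in the class. So were 7.18% of the reads of all 766 single-exon genes tested. With uniquely mapped exon and intron reads, 24 of 52 core genes were called below 0, beside 2.72% of all genes tested. Leaving out 1 library gave 19 to 21 of 56, beside 1.84% to 2.35% of all genes.

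Of 25 measured assembly factors and chaperones of ribosomal proteins, 19 fell and 2 rose, with a median log2 change of -0.30, where 24.4% of all genes tested fell and 24.5% rose. GRWD1, the dedicated chaperone of RPL3, had 8.54, 9.53 and 9.11 CPM under hypoxia and 19.7, 20.6 and 18.4 CPM under normoxia (-1.11 ± 0.095, edgeR adjusted p = 1.3e-11). RRS1, which brings RPL5 and RPL11 with 5S RNA to the pre-ribosome, had 17.8, 18.8 and 16.8 CPM under hypoxia and 33.9, 35.9 and 34.7 CPM under normoxia (-0.96 ± 0.070, edgeR adjusted p = 3.51e-13). In both genes the groups were far apart, and intron and exon reads of GRWD1 changed by -1.04 and -1.12.

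Of 20 measured genes that are other TOP mRNAs or work beside the ribosome, 11 fell and 2 rose, with a median of -0.10. Over all genes tested, 24.4% fell and 24.5% rose. IMPDH2, of guanine nucleotide synthesis (-0.40 ± 0.040, edgeR adjusted p = 5.15e-10), and NPM1, a nucleolar chaperone (-0.29 ± 0.033, edgeR adjusted p = 1.03e-08), changed most. FAU, which encodes a ribosomal protein fused to a ubiquitin-like protein, fell by 0.14 on the log2 scale (edgeR adjusted p = 0.0333). The difference of intron and exon change was called below 0 in 4 of these 20 genes (NPM1, EIF3E, NAP1L1 and EIF4B) and above 0 in none. Of all genes with enough reads of both kinds, 2.99% were called below 0 and 2.67% above. Among those with a mean of at least 100 CPM, 7.12% were called below 0.

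Mitochondrial ribosomal proteins, the counterparts encoded in the nucleus for the ribosome of the organelle, had 44 of 61 tested genes lower and 3 higher. Lower calls made up 24.4% of all genes tested and higher calls 24.5%. The median log2 change of the 61 genes was -0.29, beside 0.00 over all genes. MRPL37 changed by -0.65 and MRPS15 by -0.56, each further from 0 than any core change. The difference of intron and exon change was called below 0 in 0 of the 61 genes and above 0 in 2, with a median difference of 0.07. Of all genes with enough reads of both kinds, 2.99% were called below 0 and 2.67% above.

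Of 16 measured S6 kinases and regulators of TOP mRNA translation, 7 rose and 7 fell (median -0.09), where 49% of all genes were called. DDIT4, an inhibitor of mTORC1, had 628 ± 28.8 CPM under hypoxia and 41.3 ± 3.60 CPM under normoxia (log2 change 3.93 ± 0.052), and EIF4EBP1, the repressor of cap-dependent translation, 49.6 ± 4.72 and 27.0 ± 1.16 CPM (0.88 ± 0.067, edgeR adjusted p = 1.01e-12). The S6 kinases RPS6KB1 (-0.27) and RPS6KB2 (-0.29) fell, while the related RSK and MSK kinases RPS6KA1 (0.36), RPS6KA2 (0.45), RPS6KA3 (0.21) and RPS6KA5 (0.36) rose. Of 9 measured p53 genes, 4 rose and 3 fell, to be read against the same 49%. CDKN1A, the p53 target that stops the cell cycle, had 102 ± 2.21 CPM under hypoxia and 47.8 ± 2.90 CPM under normoxia (1.10 ± 0.050, edgeR adjusted p = 1.64e-18), while TIGAR, a p53 target in glucose metabolism, fell (-0.62 ± 0.072, edgeR adjusted p = 8.72e-09).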

How the data were processed

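RNA sequencing libraries of CMM10 cells, 3 under hypoxia and 3 under normoxia, came as 1 table each of 29822 genes. The submitters' processing notes name CanFam3.1. The aligner was not given in the sources used here. Counts in the deposited tables are, by their headers, reads per gene (total and uniquely mapped, exon, junction and intron), and the deposited TPM values served for levels between genes only. Depth was 23196647 to 28804337 gene reads, and intron reads were fewest. Groups came from the treatment label.

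Total gene reads were filtered by filterByExpr (15397 genes left), scaled by TMM and compared by edgeR's quasi-likelihood test (robust, no covariate), with Benjamini-Hochberg adjustment over all genes. CPM used TMM-scaled library sizes. SE is the log2 change over the root of F. Exon, intron and unique reads were fitted likewise, and intron against exon change as an interaction with library blocks. Scripts were tested on simulated data. Paralog ratios were log2 of CPM plus 0.5. Software was R 4.3.3, edgeR 4.0.16, DESeq2 1.42.0, Python 3.11.15 and matplotlib 3.10.9. Symbols came from the tables and overlaps from their coordinates.

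The members and gene lists were chosen with earlier results of these data known. Named were the 6 largest called rises (4 existed) and falls among core genes, the 5 highest by TPM, the paralogs, RPLP0, RPSA, RPS6, RPL5 and RPL11, and the 2 largest called changes per list. Other genes were named after their values were seen. Alternatives were other scalings, no filter, DESeq2, other read classes, a replicate block and leaving out each library. Values of some single genes are not reported here.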

Additional observations from a re-analysis of the deposited data

How the results depend on the processing

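With DESeq2's size factors, TMM factors computed without the ribosomal protein genes, no filter on low counts, DESeq2's Wald test or unique gene reads, 4 or 5 members were higher and 14 to 16 lower, with a median change of -0.03 to -0.02. Of all genes, 32.1% (no filter) to 50.3% (unique gene reads) were called in these settings. In unique gene reads the members called differed: 15 of the 17 core calls were shared, RPS24 and RPS21 were not called, and RPL23 (0.10) and RPL37 (0.16) were higher and RPL26 (-0.13) and RPL31 (-0.24) lower. Library size as the only scaling gave 1 higher and 32 lower (median -0.089, with all genes at -0.065), where 51.6% of all genes were called. Exon reads gave 8 higher and 10 lower, where 48.2% of all genes were called, and unique exon reads 9 higher and 9 lower (48.9%). Intron reads gave 3 higher and 28 lower (median -0.20), where 2588 of all genes were higher and 2173 lower among fewer genes tested. The cause was not tested. Leaving out 1 library gave 1 to 5 higher, 9 to 21 lower and a median of -0.061 to 0.00016, and 9 of the 17 core calls held in all 6 such fits. Of all genes, 43.4% to 45.6% were called in these fits. For the intron and exon difference, leaving out 1 library gave 19 to 21 core genes called below 0, beside 1.84% to 2.35% of all genes. Library size alone gave 28, beside 4.08% of all genes.

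No pairing by replicate number was seen (correlations of deviations between equal numbers were -0.09, 0.03 and -0.05). These values cannot tell whether libraries of equal number were handled together. A replicate block gave 4 members higher and 15 lower, where 49.1% of all genes were called. Leaving out 1 library took the difference of the RPL3L to RPL3 ratio to between -0.083 (without hypoxia replicate 2) and 0.339. It took the change of RPL3L to between -0.516 (without hypoxia replicate 2) and 0.468, with -0.087 without normoxia replicate 3. RPL5 ranged from -0.033 to 0.019 (without hypoxia replicate 2), with 0.0015 without normoxia replicate 1, RPS15A from -0.036 to 0.0017 (without normoxia replicate 2) and RPL11 from -0.023 (without normoxia replicate 3) to 0.065. None of these was called.

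Signs also turned in RPL11 with library size alone (-0.036), and in RPS15A and RPL5 from exon reads (0.012 and 0.0038) and unique exon reads (0.012 and 0.0031). From intron reads RPL14 (-0.038), RPS24 (-0.096), RPS26 (-0.114), RPS6 (0.273), RPLP0 (-0.377) and RPL11 (-0.354) turned, of which RPLP0 and RPL11 were called. Over the named genes and alternatives, 429 values kept direction and call, 20 lost a call, 12 gained one and 17 changed sign.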
